A study of Arabidopsis thaliana with 11 samples.

Results

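In *Arabidopsis thaliana*, 7 nuclear tRNAs carried a single listed methylated cytosine, at structural position 49 (C49): Ala(AGC), Ala(CGC), Ala(TGC), Arg(ACG), His(GTG), Thr(TGT) and Val(CAC), named by amino acid and anticodon. They are 7 of the 24 tRNAs, and hold 7 of the 39 cytosines, with a level in the tables. The 7 were chosen by the wild type call itself, because 49 was their only position in the list of sites, so their wild type levels are given as a description. A cytosine entered the list at 20% methylation or more by the study's methods. The lowest wild type seedling level among the 7 was 31% in Thr(TGT), and cytosines of the 7 outside the list had no value in the tables used.

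Gel-purified tRNA was assayed for 5-methylcytosine (m5C) by RNA bisulfite sequencing, in which an unmethylated cytosine is read as T and a methylated one stays C. The question was which RNA methyltransferase each tRNA cytosine depends on. Experiment 1 used seedlings at 10 days after germination, with 1 library each of *trm4b-1*, the *trdmt1 trm4b* double mutant, *trdmt1*, *trm4a*, *nsun5-2* and *nop2a-2* (also called *oli2-2*), and 3 wild type libraries. Experiment 2 used mixed buds, with 1 library of *trm4b-2*, a further allele of the same gene, and 1 of the wild type. All plants were of the Columbia ecotype and the mutants were T-DNA insertion lines. The double mutant combined *trdmt1* with *trm4b-1*. By the study's account the *trm4a* and *trm4b* lines showed no transcript of the disrupted gene by RT-PCR. The *nsun5-2* line may keep some expression of its gene. For wild type seedlings only the mean over 3 libraries, as computed by the authors and without its spread, was in the tables used. No mutant had a replicate. The number of reads behind each percentage was not in the tables used, and the study's totals per library, which do not give it, were not used here. No difference between genotypes could therefore be set against replicate error, no test between genotypes was made, and all calls below are rules of size. Tissue and experiment cannot be told apart, nor can the *trm4b* allele and tissue.

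A tRNA folds into a cloverleaf with an acceptor stem, a D arm, an anticodon arm, a variable region and a T arm. Position 49 is the first base of the T arm, at the junction with the variable region, and pairs with position 65 at the other end of the T stem. Cytosines around this junction are known sites of the NSUN2/Trm4 family of methyltransferases in yeast and mammals, to which TRM4A and TRM4B of *Arabidopsis* belong. By the study's alignment, TRM4A lacks motif I, a stretch of the protein that the study describes as essential for methyltransferase activity. TRDMT1, also called DNMT2, methylates position 38 of the anticodon loop, and NSUN5 and NOP2 proteins are known as methyltransferases of ribosomal RNA. In yeast and mammals, m5C in this region has been linked to tRNA stability and to protection from cleavage.

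The consensus sequences of the 7 tRNAs are shown because C49 is the only cytosine of each with a level. They are written 5′ to 3′ as DNA, as the authors' reference list gives them, with C49 as the single capital.
Ala(AGC): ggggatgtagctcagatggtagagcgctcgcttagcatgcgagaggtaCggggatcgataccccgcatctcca
Ala(CGC): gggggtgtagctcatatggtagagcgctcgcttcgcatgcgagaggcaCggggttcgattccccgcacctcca
Ala(TGC): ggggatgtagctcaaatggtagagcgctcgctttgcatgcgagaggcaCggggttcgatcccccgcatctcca
Arg(ACG): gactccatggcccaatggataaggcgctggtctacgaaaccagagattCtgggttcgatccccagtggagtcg
His(GTG): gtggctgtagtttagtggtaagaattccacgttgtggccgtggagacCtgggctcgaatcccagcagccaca
Thr(TGT): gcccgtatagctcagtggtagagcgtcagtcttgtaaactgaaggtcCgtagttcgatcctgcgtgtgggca
Val(CAC): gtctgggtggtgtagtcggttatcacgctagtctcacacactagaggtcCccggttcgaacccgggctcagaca
Position 49 was counted back from the last base of the consensus, position 73, and fell on a cytosine in 7 of the 7 sequences. It was base 49 of the 4 sequences of 73 bases (the alanine tRNAs and Arg(ACG)), base 48 of His(GTG) and Thr(TGT), which have 72 bases, and base 50 of Val(CAC), which has 74. In each of the 7, C49 faced a G at position 65, and the T stem had 5 pairs of 5, G with T included.

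The bases beside C49 differed among the 7. Position 48 was A in the 3 alanine tRNAs, T in Arg(ACG) and C in His(GTG), Thr(TGT) and Val(CAC). Position 50 was G in the alanine tRNAs and Thr(TGT), T in Arg(ACG) and His(GTG), and C in Val(CAC). The 5′ strand of the T stem read cgggg in the 3 alanine tRNAs, ctggg in Arg(ACG) and His(GTG), cgtag in Thr(TGT) and cccgg in Val(CAC). So 4 of the 7 had no cytosine at 48 or 50, and Val(CAC) had cytosines at both. The 7 other tRNAs with a listed C49, each of which has further listed sites, were Asp(GTC), Gln(CTG), Glu(CTC), Glu(TTC), Gly(CCC), Gly(GCC) and Gly(TCC). Of these, 7 had C48 and 6 had C50, listed as methylated in 6 and 5 of them. A cytosine also stood at position 38 in His(GTG) and Val(CAC) and at position 72 in all 7 members. The members thus held 20 cytosines at the 5 structural positions where the tables list sites (38, 48, 49, 50 and 72), and 7 of these 20, all at 49, were listed.

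Other nuclear tRNAs also had a cytosine at 49. Among the 58 consensus sequences of nuclear origin alone, 22 had C49 opposite G65 with a T stem of at least 4 pairs. The 7 members and the 7 other tRNAs above made up 14 of these. The remaining 8 were Pro(AGG), Pro(CGG), Pro(TGG), the initiator Met-i-(CAT), Leu(GAG), a second Leu(AAG) entry, 1 entry of undetermined anticodon, and Gln(TTG), which is listed at C48 alone. No level at C49 of these 8 was in the tables used here. A listing needed enough reads as well as enough methylation. For the 7 of them with no listed site, the tables used here do not tell a lack of reads from a lack of methylation. For Gln(TTG), the study reports C48 and C49 methylated together only in *Triticum durum* and *Nannochloropsis oculata* among the species it compared. The study's own list of detected tRNAs was not used here. Gln(TTG) and Leu(GAG) had the same 5′ T stem strand as Arg(ACG) and His(GTG), and Gln(TTG) is shown for that comparison, with its C49 in capitals:
Gln(TTG): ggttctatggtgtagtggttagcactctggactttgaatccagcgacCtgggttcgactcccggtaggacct
Within their own amino acid families, Arg(ACG), Thr(TGT) and Val(CAC) were the only nuclear entries with C49, out of 6, 4 and 3. Alanine had C49 in 3 of 3 entries, and His(GTG) was the single histidine entry.

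Each consensus stands for a set of nuclear genes whose identical or very similar sequences the authors collapsed, so that 1 level covers all of them. The 7 members covered 68 of the 257 loci behind the 24 tRNAs with a listed site. Ala(AGC) had 16 loci, Ala(TGC) and His(GTG) 10 each, Arg(ACG) 9, Thr(TGT) and Val(CAC) 8 each, and Ala(CGC) 7. On the TAIR10 build the first locus of each in the authors' list was AT1G06610 for Ala(AGC) at chr1:2025356-2025428, AT1G64420 for Ala(CGC) at chr1:23933137-23933209 and AT1G08870 for Ala(TGC) at chr1:2846536-2846608. For the others it was AT4G31265 for Arg(ACG) at chr4:15183084-15183156, AT1G02600 for His(GTG) at chr1:552640-552711, AT1G05980 for Thr(TGT) at chr1:1817400-1817471 and AT2G22110 for Val(CAC) at chr2:9393670-9393743. All 68 loci were found in the RefSeq gene table, and 68 of 68 were typed as tRNA genes. Their lengths equalled the consensus in 67 of 68, the exception being AT3G59415 of Thr(TGT), with 71 bases against 72.

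The loci were spread over the 5 chromosomes, with 13, 12, 12, 13 and 18 on chromosomes 1 to 5. The loci of Ala(AGC), Ala(CGC), Arg(ACG), His(GTG) and Thr(TGT) lay on all 5 chromosomes. Val(CAC) was on 4 and Ala(TGC) on 3. Within 1 tRNA, start positions lay within 5 kb of each other in 2 pairs, both of Ala(TGC): AT1G13840 and AT1G13850 started 1096 bases apart on chromosome 1, and AT3G63003 and AT3G63006 started 161 bases apart on chromosome 3.

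**Figure D1:**
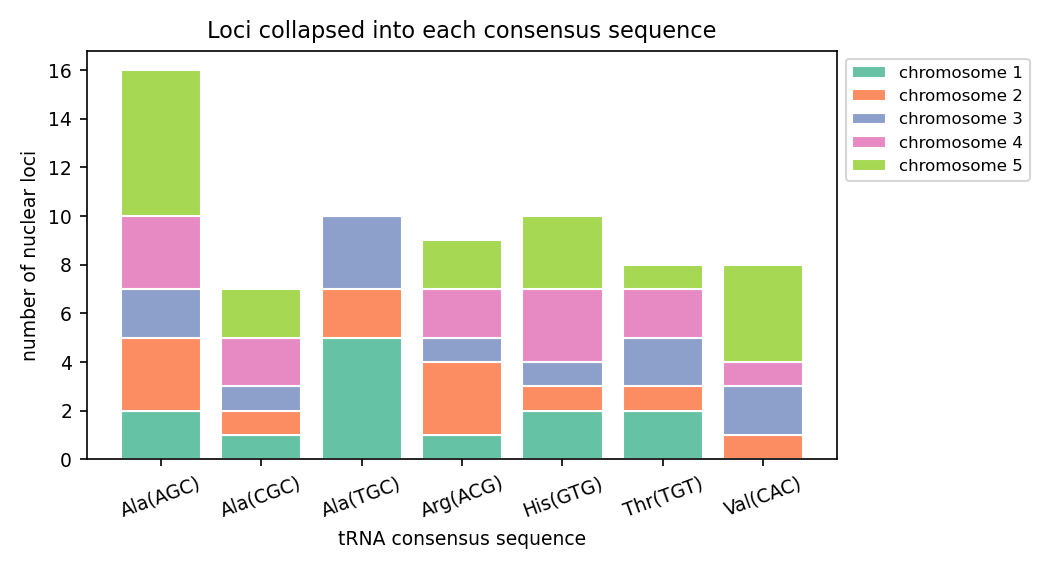
Number of nuclear loci (y axis) collapsed into each of the 7 consensus sequences (x axis), stacked by chromosome. Ala(AGC) stood for 16 loci and Ala(CGC) for 7, and 5 of the 7 tRNAs had loci on all 5 chromosomes.

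The 3 alanine tRNAs decode the alanine codons and were near copies of each other: over 73 bases they differed at 7 positions between Ala(AGC) and Ala(CGC) and at 5 in each of the other pairs. Their levels were known in few libraries. Ala(AGC) was at 0% in *trm4b-1* and 46% in wild type seedlings, and at 2% in *trm4b-2* and 53% in wild type buds. Ala(CGC) was at 3% in *trm4b-2* and 58% in wild type buds, and at 80% in wild type seedlings. Ala(TGC) was at 4% in *trm4b-2* and 70% in wild type buds, and at 60% in wild type seedlings. In the wild types all 3 were thus partly methylated, and in the *trm4b* libraries that gave a value all 3 were at 4% or less. The order of the 3 in the wild type differed between tissues, with Ala(CGC) highest in seedlings and Ala(TGC) highest in buds. In seedling mutants the alanine tRNAs had no value (marked N.D.) in 17 of 18 cells of the table. An intermediate level can come from part of the molecules in every cell, from part of the cells or from part of the loci, and these cannot be told apart.

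Arg(ACG) and His(GTG), the arginine tRNA with anticodon ACG and the only histidine tRNA in the nuclear list, had a value in every column of the tables. Arg(ACG) was at 13% in *trm4b-1*, 31% in *trdmt1 trm4b*, 69% in *trdmt1*, 92% in *trm4a*, 67% in *nsun5-2* and 100% in *nop2a-2*, against 78% in wild type seedlings. In buds it was at 29% in *trm4b-2* and 87% in the wild type. The 3 *trm4b* values lay below the 6 others, of which 1 is the wild type seedling mean, with a gap between 31% and 67%. His(GTG) was at 10% in *trm4b-1*, 6% in *trdmt1 trm4b*, 80% in *trdmt1*, 88% in *trm4a*, 92% in *nsun5-2* and 100% in *nop2a-2*, against 91% in wild type seedlings. In buds it was at 11% in *trm4b-2* and 91% in the wild type. Again the 3 *trm4b* values were the low ones, at most 11% where the 6 other values were at least 80%.

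Thr(TGT) and Val(CAC), which carry threonine and valine, had a value in every column but *nop2a-2*. Thr(TGT) was at 0% in *trm4b-1*, 0% in *trdmt1 trm4b*, 60% in *trdmt1*, 60% in *trm4a* and 40% in *nsun5-2*, against 31% in wild type seedlings. In buds it was at 0% in *trm4b-2* and 58% in the wild type. The level was thus 0% in each of the 3 *trm4b* libraries, while the wild type seedling mean was the lowest of the 5 other values. Val(CAC) was at 0% in *trm4b-1*, 0% in *trdmt1 trm4b*, 43% in *trdmt1*, 40% in *trm4a* and 83% in *nsun5-2*, against 61% in wild type seedlings. In buds it was at 1% in *trm4b-2* and 66% in the wild type. Val(CAC) was again at or near 0% in the 3 *trm4b* libraries and at 40% or more in the others.

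**Figure D2:**
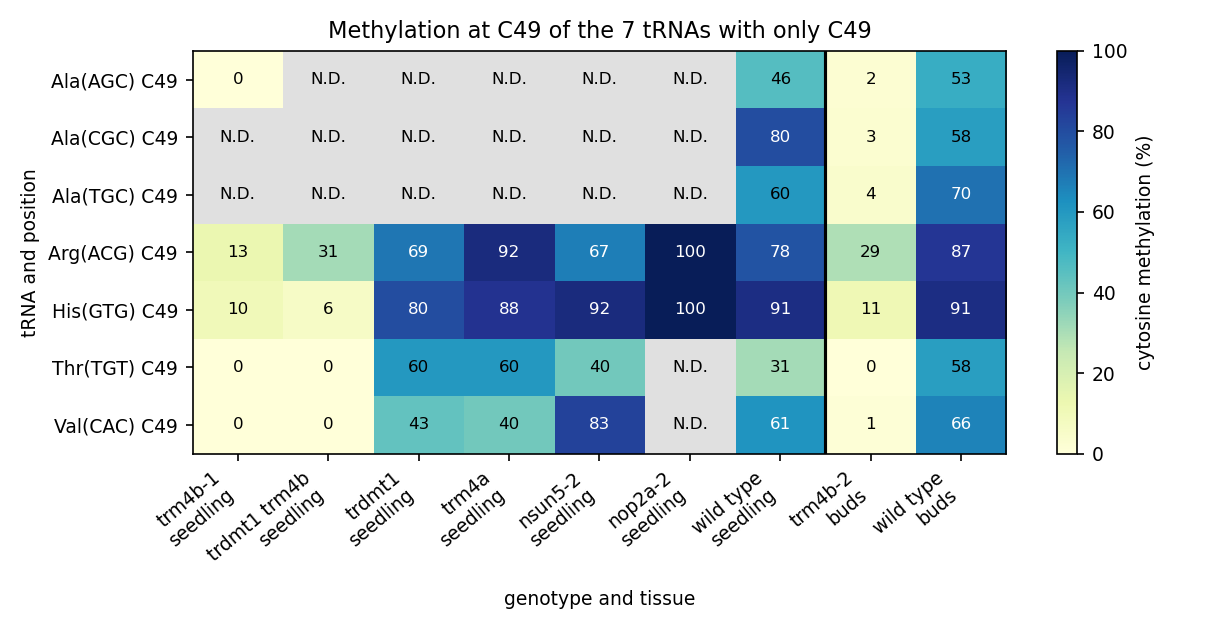
Methylation at C49 (colour and printed number, in percent) of the 7 tRNAs (rows) in each genotype and tissue (columns), with seedlings left and buds right of the black line. Grey cells marked N.D. had no value, 19 of 63 cells, and the 3 columns of *trm4b* mutants held 0% to 31% where measured.

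The call lost was given to a mutant level of no more than 5%, and reduced to a higher level that still lay 20 points or more under its wild type (a point is 1 percent of methylation). In *trm4b-1* seedlings 5 of the 5 members with a value were called lost or reduced, against 78.1% of all 32 sites with a value. Ala(AGC), Thr(TGT) and Val(CAC) were lost, and Arg(ACG) and His(GTG) were reduced. In the *trdmt1 trm4b* double mutant 4 of 4 members were called, against 74.3% of all 35 sites, with Thr(TGT) and Val(CAC) lost and Arg(ACG) and His(GTG) reduced. In *trm4b-2* buds 7 of 7 were called, against 62.9% of all 35 sites with at least 20% in wild type buds. The 3 alanine tRNAs, Thr(TGT) and Val(CAC) were lost there, and Arg(ACG) and His(GTG) were again reduced. The 2 reduced members had the highest levels in wild type buds, and in wild type seedlings only Ala(CGC), without a value in *trm4b-1*, stood between them. They were also the only members with T at position 50, and both features were noticed after the values were seen. No member was higher by 20 points or more in any of these 3 libraries, against 0% of all sites in *trm4b-1*, 0% in *trdmt1 trm4b* and 0% in *trm4b-2*.

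The size of the difference varied among the members. The median difference from the wild type was -61 points over 5 members in *trm4b-1*, against -52.5 points over all 32 sites. It was -54 points over 4 members in the double mutant, against -61 points over all 35 sites, and -58 points over 7 members in *trm4b-2*, against -50 points over all 36 sites with a value. The smallest single difference was -31 points, of Thr(TGT) in both seedling mutants, where the wild type seedling level of 31% allowed no larger one. The largest was -85 points, of His(GTG) in the double mutant. *trm4b-1* and the double mutant were set against the same wild type libraries.

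**Figure D3:**
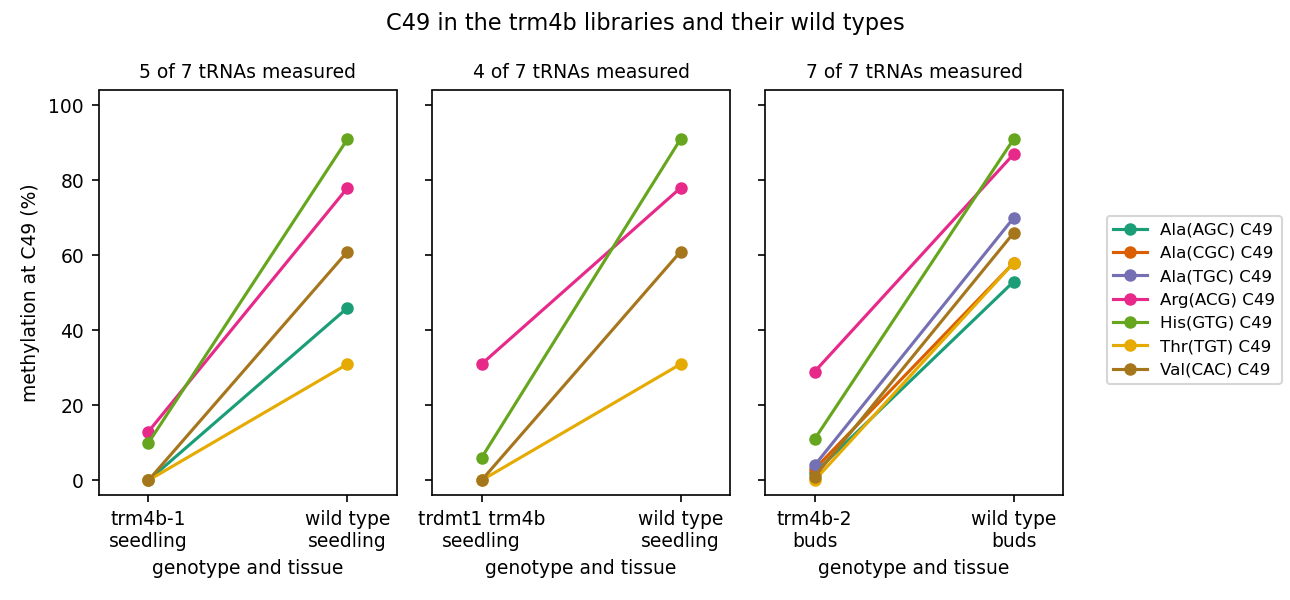
Methylation at C49 (y axis, percent) in each *trm4b* library (left in each panel) and its wild type (right), with 1 line per tRNA. All 16 lines run upward to the wild type, Thr(TGT) ends at 0% in all 3 mutants, and Arg(ACG) has the highest mutant level in each panel, 13%, 31% and 29%.

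The alleles and the double mutant gave close values for 3 of the members measured in all of them. Thr(TGT) was at 0% in the double mutant, in *trm4b-1* and in *trm4b-2*, and Val(CAC) at 0% in the double mutant, 0% in *trm4b-1* and 1% in *trm4b-2*. His(GTG) was at 6% in the double mutant, 10% in *trm4b-1* and 11% in *trm4b-2*. Arg(ACG) varied more, with 31% in the double mutant and 29% in *trm4b-2* but 13% in *trm4b-1*, a difference of 18 points between the double mutant and *trm4b-1*. Without replicates, whether these 18 points exceed the spread between libraries was not tested. Ala(AGC) was at 0% in *trm4b-1* and 2% in *trm4b-2*, with no value in the double mutant.

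The members lay lower in the *trm4b* libraries than the C49 sites of the 7 tRNAs with several listed sites. In *trm4b-1* the 5 members were at 0% to 13%, and the 7 other C49 sites at 32% to 100%. In the double mutant 4 members were at 0% to 31%, and the others at 42% to 88%. In *trm4b-2* buds 7 members were at 0% to 29%, and the others at 48% to 91%. Each member with a value thus lay below the lowest of the other C49 sites in all 3 libraries. The tRNAs share each library, so these are descriptions of 3 libraries, with no test. The 2 lists also differed in their wild type levels, the members being at 31% to 91% in seedlings and the other C49 sites at 90% to 98%. Low levels were not particular to the members. In the tRNAs with several sites, each listed C48 and C50 but C48 of Gln(CTG) was at 5% or less in all 3 libraries. These sites lay below His(GTG), at 6% to 11%, and Arg(ACG), at 13% to 31%. C48 of Gln(CTG) ranged from 71% to 93% there. C48 of Glu(TTC) was low in the wild types too, at 23% in seedlings and 17% in buds.

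Set relative to the wild type level, the order was the same, each member keeping less than every other C49 site of its library. The gap was narrowest in the double mutant, between Arg(ACG) at 39.7% and Glu(TTC) at 44.7%. In *trm4b-1* the members kept a median of 0% of their wild type level (range 0% to 16.7%), against 66.0% for the other C49 sites (34.0% to 102%). In the double mutant the members kept a median of 3.30% (0% to 39.7%), against 68.1% (44.7% to 89.8%). In *trm4b-2* the members kept a median of 5.17% (0% to 33.3%), against 79.8% (49.5% to 98.9%). The members' medians depended on which were measured: Arg(ACG) and His(GTG) alone kept a median of 13.8% in *trm4b-1*, 23.2% in *trdmt1 trm4b* and 22.7% in *trm4b-2*, and the mean over the members with a value was 5.53% in *trm4b-1*, 11.6% in *trdmt1 trm4b* and 8.80% in *trm4b-2*. The tRNAs with only C48 ranged more widely, keeping a median of 61.4% (0% to 101%) in *trm4b-1*, 33.3% (0% to 112%) in *trdmt1 trm4b* and 77.6% (0% to 111%) in *trm4b-2*, so levels of 0% were not found in the members alone. Among the members, Arg(ACG) kept the most in each library, and His(GTG) kept 11.0% in *trm4b-1*, 6.59% in *trdmt1 trm4b* and 12.1% in *trm4b-2*. The other C49 site that kept least was Glu(TTC) in both seedling libraries and Asp(GTC) in *trm4b-2*.

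**Figure D4:**
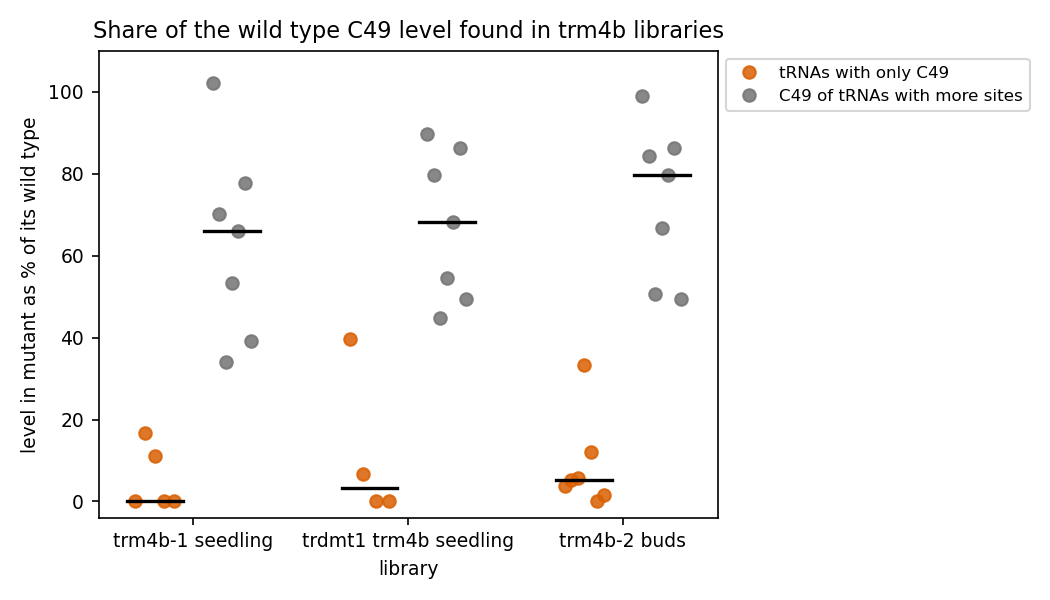
Level at C49 in each *trm4b* library as a percent of its wild type (y axis) for the 7 tRNAs with only C49 (orange, 5, 4 and 7 of them with a value) and for C49 of the 7 tRNAs with more listed sites (grey). Black lines are medians, 0%, 3.30% and 5.17% for the orange points (13.8%, 23.2% and 22.7% over Arg(ACG) and His(GTG) alone), and no orange point reaches the lowest grey point of its library.

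The 4 seedling mutants that carry TRM4B gave mixed, smaller differences. A site less than 20 points below full methylation in wild type seedlings could not be called higher in them. In *trdmt1* 0 of the 4 members with a value were lost or reduced, against 13.3% of all 30 sites, and 1 was higher by 20 points or more, against 6.67%. That member was Thr(TGT), at 60% in *trdmt1* and 31% in wild type seedlings. Of the 2 members with a cytosine at 38, the TRDMT1 position, Val(CAC) was at 43% at C49 in *trdmt1* and 61% in the wild type, a difference of -18 points. His(GTG), the other, was at 80% in *trdmt1* and 91% in the wild type, a difference of -11 points, and Arg(ACG), without C38, differed by -9 points. C49 of Gln(CTG), a tRNA also without C38, differed by -27 points. By the study's account, C38 was methylated in Asp(GTC), Gly(CCC) and Gly(GCC) and in no other tRNA it detected. In *trm4a* 1 of 4 members was reduced, against 3.33% of all 30 sites, and 1 was higher, against 3.33%. Val(CAC) was the reduced one, at 40% in *trm4a* and 61% in wild type seedlings, and Thr(TGT) the higher one, at 60% in *trm4a* and 31% in wild type seedlings. These were the only site called reduced and the only site called higher in that library. By the study's account the *trm4a* profile equalled that of the wild type, and neither difference was tested here.

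In *nsun5-2* 0 of 4 members were lost or reduced, against 7.41% of all 27 sites, and 1 was higher, against 3.7%. Val(CAC) was that one, at 83% in *nsun5-2* and 61% in the wild type. In *nop2a-2* only Arg(ACG) and His(GTG) had a value. None of the 2 was lost or reduced, against 0% of all 27 sites, and 1 was higher, against 3.7%, Arg(ACG) at 100% in *nop2a-2* and 78% in wild type seedlings. Of the 5 sites called higher across these 4 libraries, counting each library separately, 4 were members. The limit on that call near full methylation bore more on the other sites. Their wild type seedling median was 92%, against 61% for the members. The median difference of the members was -10 points in *trdmt1*, 5.5 in *trm4a*, 5 in *nsun5-2* and 15.5 in *nop2a-2*, and over all sites it was -1.5, -1, -1 and -3 points. In *nsun5-2* the members' median turned to -5 points with Arg(ACG) and His(GTG) alone, the members with a value in every column, and in *trdmt1* the members' mean was -2.25 points. The median size of the difference, sign left aside, was 14.5, 17.5, 10 and 15.5 points for the members, against 2.5, 2.5, 2 and 4 points for all sites. All 4 were set against the same wild type mean.

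The levels of the members spread widely over the seedling libraries in which TRM4B is intact (*trdmt1*, *trm4a*, *nsun5-2*, *nop2a-2* and the wild type mean). Val(CAC) ranged from 40% to 83%, a range of 43 points over 4 values, and Arg(ACG) from 67% to 100%, 33 points over 5 values. Thr(TGT) ranged over 29 points in 4 values, and His(GTG) over 20 points in 5. The median range of these 4 was 31 points, against 4 points for C49 of the 7 tRNAs with several sites and 5 points for the 24 other sites away from position 38 with at least 2 values. Of the 7 other C49 sites, Gln(CTG) with 29 points and Gly(CCC) with 20 points reached the members' ranges, and the other 5 had 1 to 5 points. The 10 tRNAs whose only listed site is C48 had a median range of 12 points over the 5 of them with at least 2 values, the widest being 34 points in Lys(TTT). N.D. filled 19 of 63 member cells (30.2%), against 1 of 63 cells (1.59%) for the other C49 sites and 35 of 90 cells (38.9%) for the tRNAs with only C48. Cells marked N.D. had no level, and the reads behind the remaining ones were unknown, so the part of depth in this range was not tested. Arg(ACG) and His(GTG), with no missing cell, had a median range of 26.5 points, against 4 points over the 20 other sites away from position 38 with a value in every column. Those 20 ranged over 1 to 31 points, the widest being C48 of Gly(CCC). A value in every column meets the study's minimum of 5 reads but does not make the reads equal, so depth was not tested here either.

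**Figure D5:**
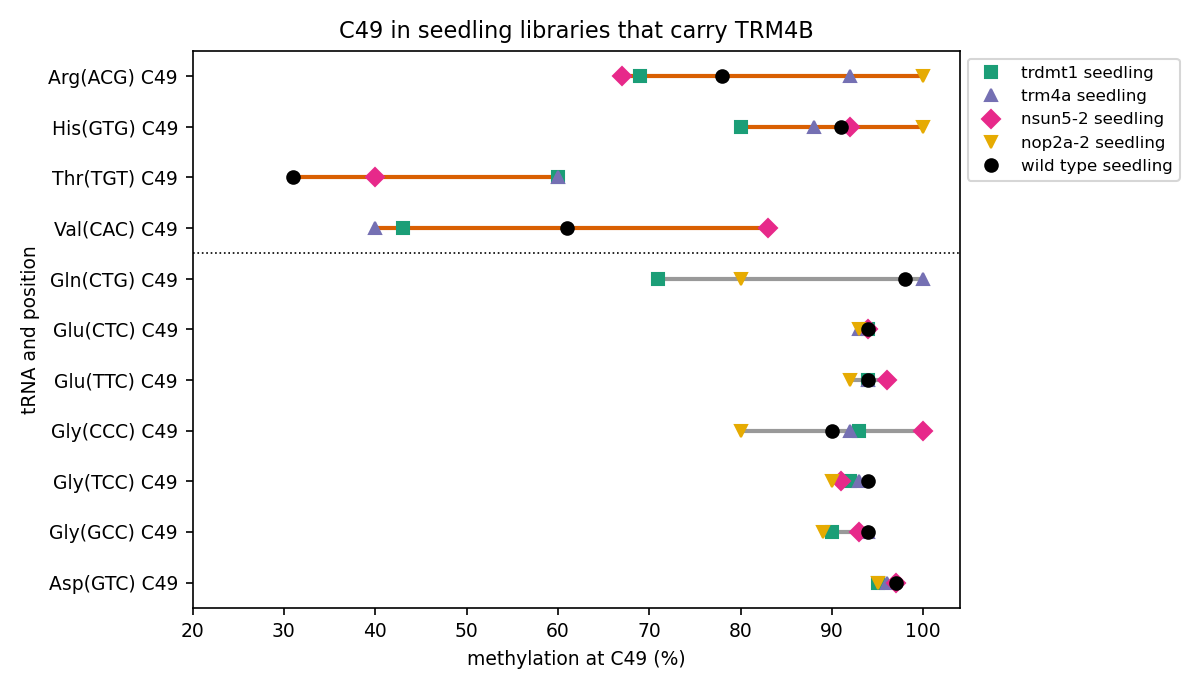
Methylation at C49 (x axis, percent, starting at 20%) in the seedling libraries that carry TRM4B, with a symbol per genotype and a bar from lowest to highest, for the 4 members with more than 1 value (above the dotted line) and the 7 other C49 sites (below it). The members' bars span 20 to 43 points and 5 of the 7 others span 1 to 5 points. The *trdmt1* and *trm4a* symbols of Thr(TGT) coincide at 60%.

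Between tissues, wild type buds were compared with wild type seedlings, which were also different experiments. In buds 1 of 7 members was higher by 20 points or more, against 2.56% of all 39 sites, and 1 was lower by as much, against 5.13%. A site less than 20 points below full methylation in seedlings, such as each of the other C49 sites, could not be called higher. Thr(TGT) was the higher one, at 58% in buds and 31% in seedlings, and Ala(CGC) the lower one, at 58% in buds and 80% in seedlings. The other 5 differed by 0 to 10 points: Ala(TGC) was at 70% in buds and 60% in seedlings, Arg(ACG) at 87% in buds and 78% in seedlings, Ala(AGC) at 53% in buds and 46% in seedlings, Val(CAC) at 66% in buds and 61% in seedlings, and His(GTG) at 91% in both. The median level of the members was 66% in buds and 61% in seedlings, against 95% in buds and 94% in seedlings for the other C49 sites. The median size of the difference was 9 points for the members, against 1 point for the other C49 sites, 6.5 points for the 10 tRNAs with only C48 and 3 points for all sites.

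In wild type buds the members ranked His(GTG), Arg(ACG), Ala(TGC), Val(CAC), Thr(TGT) and Ala(CGC) with the same level, and Ala(AGC). In wild type seedlings the order was His(GTG), Ala(CGC), Arg(ACG), Val(CAC), Ala(TGC), Ala(AGC) and Thr(TGT). His(GTG) was highest in both, and no spread was available to say which neighbours in these orders differ.

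For each member with a value in at least 6 columns in common with another listed site, the 2 sites with the smallest mean absolute difference in level were found, as a measure of likeness over libraries that all tRNAs share. His(GTG) was closest to C48 of Gly(CCC), at a mean of 5.44 points over 9 columns, and to C50 of Gly(TCC), at 5.89 points. Arg(ACG) was less close to any site, with 11.3 points to C48 of Gly(CCC) and 15.2 points to C49 of Glu(TTC). Thr(TGT) was closest to C48 of Asp(GTC), at 13.5 points over 8 columns, and to C48 of Gly(TCC), at 15.4. Val(CAC) had the same 2 sites in the other order, at 12.5 points to C48 of Gly(TCC) and 12.9 to C48 of Asp(GTC). Among the members, Arg(ACG) and His(GTG) differed by a mean of 11.4 points over 9 columns, and Thr(TGT) and Val(CAC) by 14.9 points over 8.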

How the data were processed

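Per the study's methods, tRNA was purified from gels, converted with bisulfite beside an in vitro transcript without m5C, sequenced, and aligned in CLC Genomics Workbench (its version was not given in the sources used here), against consensus sequences with each C written as T, made from TAIR10, the build in the submitters' processing notes. The authors deposited percent methylation, the reads with C as a percent of reads with C or T, in whole percents. Their minimum was 5 reads for a value and 20% for a site. Other modified cytosines that resist bisulfite also read as m5C, and with few reads a level moves in large steps.

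Columns were matched to genotypes by name. Calls of lost (up to 5%), reduced (lower by 20 points or more) and retained were made for sites with a matching wild type level of 20% or above. The call higher (by 20 points or more) and the calls between tissues had no such minimum. A site less than 20 points below full methylation in the wild type could not be called higher. Mutants had 1 library each, so there are no p-values. The rule for naming took all 7 members, the C49 sites of tRNAs with several sites, and the 2 sites most like each member over at least 6 columns. The members, lists and thresholds were chosen with earlier results of these data known. RefSeq (assembly TAIR10.1) served for gene types alone, and coordinates are the authors' on TAIR10. Alternatives were a wild type minimum of 40%, differences of 10 and 30 points, a mutant to wild type ratio below 0.5, other levels for lost, means, fully measured members, and a common wild type. Python 3.11.15, numpy 2.4.6 and matplotlib 3.10.9 were used.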

Additional observations from a re-analysis of the deposited data

How the results depend on the processing

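Of 61 recounts of members, 48 stayed within 1.5 times the count in the report, and the counts of members lost or reduced in the 3 *trm4b* libraries did so under each alternative run, including wild type seedlings as the common reference for *trm4b-2*. The 48 include counts of 0 that could not rise under a stricter rule, such as a difference of 30 points. The recounts outside 1.5 times had small counts. With lost set at 0%, 1 member was lost in *trm4b-2*, against 5. With a difference of 10 points, 2 members were lost or reduced in *trdmt1* and 1 in *nsun5-2*, 2 were higher in *trm4a* and 2 in wild type buds. With 30 points, 0 members were higher in *trdmt1*, *trm4a*, *nsun5-2*, *nop2a-2* or wild type buds, 0 were lower in wild type buds and 0 were reduced in *trm4a*, and 0 were reduced there with a ratio below 0.5. Each of those calls rested on 1 tRNA and a difference under 30 points.

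The mean difference of the members was -56.8 points in *trm4b-1*, -56 in *trdmt1 trm4b*, -61.9 in *trm4b-2* and -2.25 in *trdmt1*. With Arg(ACG) and His(GTG) alone, the members with a value in every column, the median difference was -73 points in *trm4b-1*, -66 in *trdmt1 trm4b* and -69 in *trm4b-2*, and it turned to -5 points in *nsun5-2*, against 5 points over 4 members. The mean share of the wild type level kept was 5.53% in *trm4b-1*, 11.6% in *trdmt1 trm4b* and 8.80% in *trm4b-2*, and the median for Arg(ACG) and His(GTG) alone was 13.8%, 23.2% and 22.7%. The larger values without the other members follow from which tRNAs were left. Leaving out a wild type seedling library was not possible, since their mean alone was in the tables used. No paired analysis was possible because each mutant had 1 library and the result comes from no test. Read depth was unknown, so no limit of detection could be set for the levels of 0%.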
